A study of Mus musculus with 64 samples.

Results

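Of 64 RNA-seq libraries made from the ventricles of mouse hearts, the 16 with the most Myl7 RNA were compared with the 16 with the least, to describe which transcripts follow atrial RNA in tissue dissected as ventricle. Myl7 encodes the atrial isoform of the myosin regulatory light chain. For each library the Myl7 count was divided by the total count on genes and multiplied by 1000000 (CPM). The groups were chosen by this measured value alone, and the other 32 libraries lay in between. The ranking is not a label of the study, so Myl7 itself is given only as a description.

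The mice were male C57BL/6. Of the 64 hearts 32, labelled CEK, lacked the transcriptional repressor E4BP4 in cardiomyocytes only, and the other 32, labelled CON, were littermate controls. Hearts were taken every 3 h at 8 zeitgeber times from ZT0 to ZT21, with 4 biological replicates for each genotype and time, and the labels name the tissue as both ventricles. The age of the mice, the driver of the cardiomyocyte deletion and the way the atria were removed were not given in the sources used here.

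Atrial and ventricular cardiomyocytes share most of the contractile machinery but differ in several isoforms of myosin light chains, in the secretion of natriuretic peptide, and in the connexins and potassium channels that shape the action potential. The atria also hold the sinoatrial node, are lined by endocardium and covered by epicardium, and their right and left sides differ in the genes they express. In the adult mouse heart Bmp10 is known mainly from the right atrium.

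The 16 high Myl7 libraries had 400, 661 and 1319 CPM of Myl7 (lowest, median, highest), against 19.01, 51.0 and 97.7 CPM in the 16 low Myl7 libraries. The step at each limit was small: the last high library, CEK at ZT0 replicate 3, had 399.8 CPM and the next one down, CON at ZT21 replicate 3, had 372.7 CPM, while the first low library, CEK at ZT15 replicate 1, had 97.7 CPM and its upper neighbour, CON at ZT0 replicate 4, had 101.7 CPM. The ranking is thus a continuous scale with no gap at which the groups part. Myl7 (ENSMUSG00000020469.8) lies on chromosome 11 at 5896637 to 5898782 in GRCm38, and even the lowest library held 522 counts of it.

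**Figure D1:**
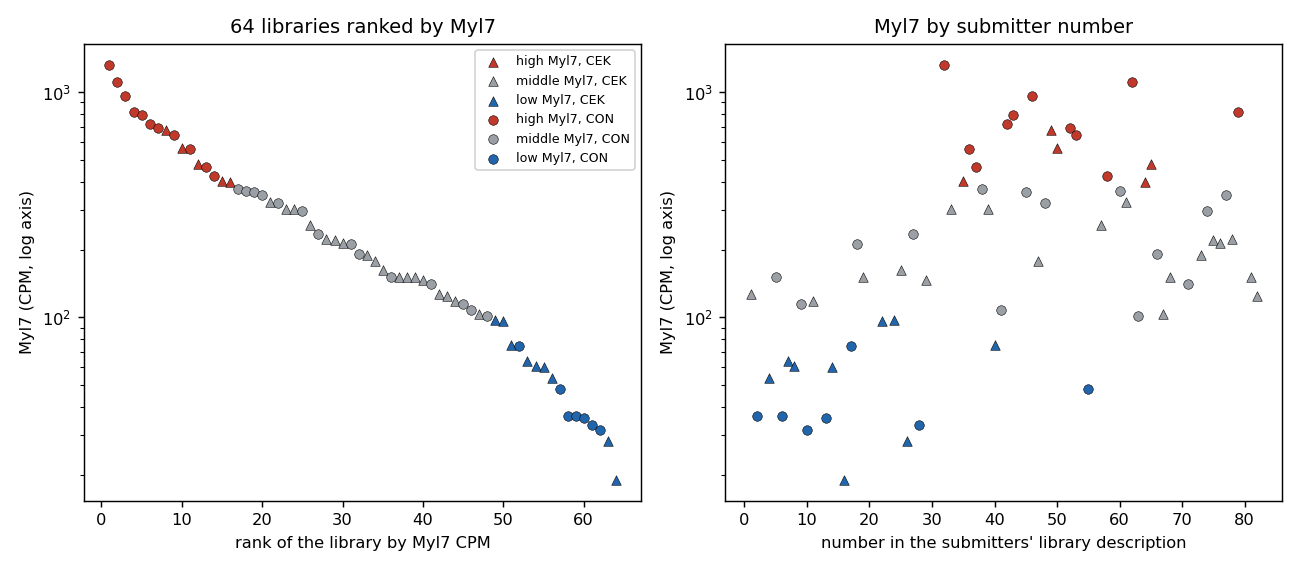
Myl7 CPM (log axis) of each of 64 libraries against its rank (left) and against the number in the submitters' description of the library (right); colours mark the 16 high, 32 middle and 16 low libraries, triangles CEK and circles CON. Values span 1319 to 19.01 CPM without a gap, and 15 of the 16 low libraries are among the 32 with the lower numbers.

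The groups were not balanced over the study's design. The high group held 5 CEK and 11 CON libraries, and the low group 9 CEK and 7 CON libraries. At ZT18, 6 of 8 libraries were high, and CEK libraries were high only at ZT0 (2 libraries) and ZT18 (3 libraries). Genotype and time were therefore terms of the fit. Replicate numbers, which were not, were uneven too: of the libraries numbered replicate 1, 1 was high and 8 were low, and of those numbered replicate 2, 7 were high and 4 low.

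The numbers in the submitters' descriptions, whose meaning the labels do not give, moved with the ranking. High libraries had numbers from 32 to 79 and low libraries from 2 to 55, and 14 of the 16 low libraries were at 28 or below. Of the 32 libraries with the lower numbers 4 were high and 15 low, and of the other 32 libraries 12 were high and 1 low. The main count of calls is given below also with this number as a covariate. On the first principal component of log2 CPM 3 libraries stood apart, with scores from 81.9 to 102 against 35.8 for the next: CEK at ZT0 replicate 4 and CON at ZT18 replicate 3, both high, and CEK at ZT18 replicate 1, which is low. The main count is given without these 3 libraries too. Total counts on genes were 7.71 to 45.6 M in high and 23.0 to 34.6 M in low libraries, and the mitochondrial share of counts averaged 23.9 ± 2.61% in high and 24.1 ± 4.68% in low libraries (SD, n = 16 each). Neither measure, nor the share of reads outside genes, passed a two-sided permutation test (100000 permutations, smallest adjusted p = 0.892 over 3 measures).

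Libraries with high Myl7 held more of most other atrial transcripts tested, and no ventricular cardiomyocyte gene passed the test in either direction. Of 16416 genes tested in edgeR's quasi-likelihood fit, 401 (2.44%) had a Benjamini-Hochberg adjusted p below 0.05. They were 352 genes (2.14% of those tested) that were higher and 49 (0.298%) that were lower in high Myl7 libraries. The rises were large and the falls small: the median log2 difference was 0.95 over the called rises and -0.24 over the called falls, and 170 rises but 0 falls reached 2-fold. For 15 genes (0.0914%), all of them rises, the 16 high libraries did not overlap the 16 low ones in CPM. When the submitters' number was added as a covariate, 68 genes (0.414%) passed, of which 66 were higher (0.402%), and all 352 rises and all 49 falls kept their sign. Within the 32 libraries with the higher numbers a slope on log2 Myl7 CPM called 478 genes, and within the 32 with the lower numbers 126 genes, a check added after the data were seen. Of the 352 rises, 247 were among the first and 114 among the second, and all 352 had a positive slope in each. Both sets include high and low libraries that chose these genes. The kept signs, here and with the covariate, are thus partly built in. Leaving out the 3 libraries that stood apart gave 641 calls (3.9%), and 369 of the 401 genes were among them.

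The 2 other markers that go with the label, Myl4 and Sln, and Mybphl from the list of atrial contractile and calcium proteins are described first. Myl4 and Sln were named with the label with these same data known, so they are not an independent check of it. Ranked by Myl4, 14 of the 16 high and 15 of the 16 low libraries were the same. Myl4, the atrial essential light chain of myosin (chromosome 11, 104550663 to 104595753), had 451, 764 and 1490 CPM in high Myl7 libraries (lowest, median, highest), against 28.2, 65.7 and 144 CPM in low Myl7 libraries. Sln, sarcolipin, which inhibits the calcium pump of the sarcoplasmic reticulum (chromosome 9, 53850164 to 53854560), had 114, 189 and 346 CPM in high libraries, against 3.87, 13.3 and 32.5 CPM in low libraries. Mybphl, a myosin-binding protein of the atria and the conduction system (chromosome 3, 108364911 to 108380057), had 24.5, 73.1 and 140 CPM, against 1.26, 5.51 and 15.9 CPM. For none of the 3 genes did any low library reach the level of a high one.

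The log2 differences were 3.73 ± 0.25 (SE) for Myl4, 4.08 ± 0.29 for Sln and 3.86 ± 0.28 for Mybphl, with edgeR adjusted p of 9.13e-11, 1.94e-10 and 4.81e-10. They correspond to 13.3-fold, 16.9-fold and 14.5-fold. All 3 calls stayed in each of the 32 leave-one-out fits and in the fit with the submitters' number (log2 difference 3.64, 3.89 and 3.59). Mybphl overlaps a provisional gene model on the other strand, as do Myl4 and Nppa, and the submitters' notes give no strand setting for the counting, so reads of such partners may be shared. The same holds for Gja5, Plvap, Tmem163, Sbk2, Cacna1h and Myl2, which overlap other annotated genes.

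The bases just before the starts of Myl7 and of 3 of the genes that followed it are shown as a description. Whether these genes share control at their starts was not tested. Each stretch is 150 bases up to the base before the start, from RefSeq on GRCm38.p6, 5′ to 3′ on the gene's strand. Capitals mark matches on either strand to the letters TATAAA, to TGATAA and AGATAA, which hold the core that GATA factors bind, to AGGTGT (T-box factors), to TAAAAATA (MEF2 factors) and to the CArG box of serum response factor.
Myl7 (chr11:5898783-5898932, minus strand): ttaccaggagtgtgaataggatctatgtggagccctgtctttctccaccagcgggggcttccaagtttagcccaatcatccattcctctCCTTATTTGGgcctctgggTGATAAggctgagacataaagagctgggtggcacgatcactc
Myl4 (chr11:104550513-104550662, plus strand): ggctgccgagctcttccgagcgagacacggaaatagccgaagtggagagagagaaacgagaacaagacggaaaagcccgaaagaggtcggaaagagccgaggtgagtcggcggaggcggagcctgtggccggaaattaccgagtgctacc
Mybphl (chr3:108364761-108364910, plus strand): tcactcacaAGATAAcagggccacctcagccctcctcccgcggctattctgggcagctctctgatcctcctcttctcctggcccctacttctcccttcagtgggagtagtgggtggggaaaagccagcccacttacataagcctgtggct
Nppa (chr4:148000572-148000721, plus strand): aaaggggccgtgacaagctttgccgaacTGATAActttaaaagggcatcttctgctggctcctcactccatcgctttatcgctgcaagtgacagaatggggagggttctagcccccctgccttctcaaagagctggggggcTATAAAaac
Of 5 genes looked up, 4 were in the table, and Sln was not. The Myl7 window held a CArG box, which 0.916% of all 32851 windows of this length hold, and TGATAA (4.45% of windows). The Nppa window held TGATAA and TATAAA (7.57%), the Mybphl window AGATAA (5.65%), and the Myl4 window none of the 6. AGGTGT (6.86% of windows) and TAAAAATA (1.39%) were in none of the 4. No motif was shared by all 4 windows.

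Secreted proteins of the atria were higher too. Nppa, atrial natriuretic peptide (chromosome 4, 148000722 to 148002079), had 57.98, 277 and 498 CPM in high Myl7 libraries, against 5.81, 27.5 and 94.1 CPM in low ones. The ranges overlapped through 1 high library, CEK at ZT0 replicate 4, and 1 low library, CEK at ZT3 replicate 1. The latter had 94.1 CPM of Nppa and the lowest Myl7 of all 64 libraries. The log2 difference was 3.51 ± 0.38 (edgeR adjusted p = 5.10e-07). Dkk3, a secreted glycoprotein of the Dickkopf family, had 37.6, 111 and 257 CPM in high libraries, against 13.2, 23.1 and 57.8 CPM in low libraries, a log2 difference of 2.33 ± 0.25. Pam, the enzyme that amidates peptides and an abundant protein of atrial granule membranes, had a higher base in the low libraries and differed less, with 503, 1386 and 2445 CPM in high against 493, 654 and 1023 CPM in low libraries (log2 difference 1.11 ± 0.17, edgeR adjusted p = 0.000145). Dkk3 and Nppa kept their calls with the submitters' number as a covariate, and Pam did not (edgeR adjusted p = 0.132).

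Bmp10, a ligand of the TGF-beta family, had the largest log2 difference of the genes named by rule, 4.82 ± 1.24, and by far the widest spread. It had 0.0558, 38.5 and 313 CPM in high Myl7 libraries, against 0, 0.965 and 90.7 CPM in low Myl7 libraries, so the groups overlapped over most of their range. Its edgeR adjusted p was 0.0309, and the call was lost in 11 of 32 leave-one-out fits (largest adjusted p 0.102) and with the submitters' number as a covariate (0.476).

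**Figure D2:**
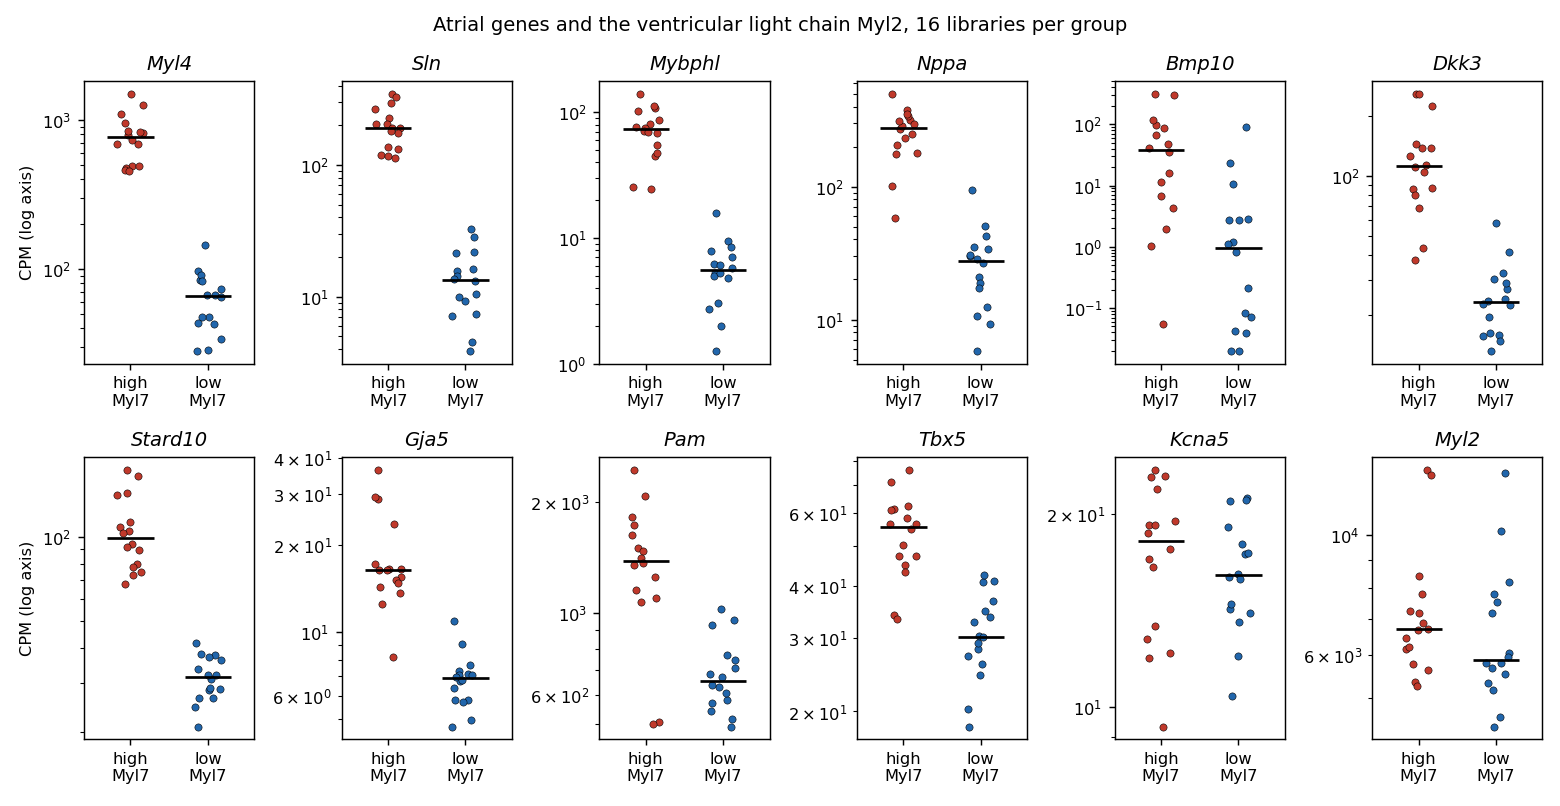
CPM (log axes that differ by panel) of 11 atrial genes and of the ventricular light chain Myl2 in the 16 high and 16 low Myl7 libraries, 1 point per library with a bar at the median; counts of 0 are drawn at 0.02 CPM. Myl4, Sln, Mybphl and Stard10 separate the groups without overlap, Bmp10 is spread over several orders of magnitude in both, and Kcna5 and Myl2 do not separate them.

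Among channels, connexin and lipid transfer, 4 of 7 genes rose, against 2.14% of all genes. Stard10, a phospholipid transfer protein (chromosome 7, 101317086 to 101346626), had 67.8, 98.8 and 174 CPM in high Myl7 libraries, against 20.9, 31.4 and 41.5 CPM in low libraries, with no overlap and a log2 difference of 1.79 ± 0.12 (edgeR adjusted p = 9.13e-11). Gja5, connexin 40, the gap junction protein of atria and conduction fibres, had 8.17, 16.4 and 36.4 CPM against 4.69, 6.88 and 10.9 CPM, a log2 difference of 1.54 ± 0.13 with an overlap at the edge. Kcnj3, a subunit of the acetylcholine-activated potassium channel, had 59.7, 133 and 199 CPM against 44.7, 77.2 and 105 CPM (0.73 ± 0.12). The calcium channel subunit Cacna2d2 (1.11 ± 0.30, edgeR adjusted p = 0.0483) was called in only 11 of 32 leave-one-out fits. Kcnj3 and Cacna2d2 lost their calls with the submitters' number as a covariate (edgeR adjusted p = 0.262 and 0.276), and Stard10 and Gja5 kept theirs. Kcnj5, which forms the same acetylcholine-activated channel as Kcnj3, had a log2 difference of 0.19 ± 0.12 (adjusted p = 0.629), and the channels Kcna5 (-0.07 ± 0.11) and Kcnk3 (0.07 ± 0.078) did not pass either.

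Of transcription factors linked to the atria, Tbx5, Nr2f2 and Nr2f1 rose. Tbx5, a T-box factor of atria and conduction system, had 33.3, 55.6 and 76.4 CPM in high Myl7 libraries, against 18.4, 30.3 and 42.6 CPM in low libraries. The ranges overlapped, and the log2 difference was 0.78 ± 0.12 (edgeR adjusted p = 0.000181). The nuclear receptors Nr2f2 and Nr2f1 differed by 0.59 ± 0.080 and 0.53 ± 0.14. Nr2f2 sets atrial identity in the mouse. Nr2f1 was called in 13 of 32 leave-one-out fits, and Tbx5 and Nr2f2 in all 32. Tbx5, Nr2f2 and Nr2f1 all lost their calls with the submitters' number as a covariate (edgeR adjusted p = 0.465, 0.190 and 0.849). Hey1, a Notch target, differed by -0.08 ± 0.092 and did not pass (edgeR adjusted p = 0.840). Over the 4 atrial lists 15 of 19 genes tested were higher in the comparison as given, against 2.14% of all genes. With the 3 outlying libraries removed 15 of 19 were higher, against 504 of all 16416 genes. With the submitters' number as a covariate 8 of 19 were higher, against 0.402% of all genes.

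No ventricular gene was called lower, which does not show that their levels were equal. Of 8 ventricular cardiomyocyte genes 0 passed in edgeR, and 0 had an unadjusted p under 0.05, against 1951 of all 16416 genes. Of the 8, 2 had a positive sign, and the median log2 difference was -0.07. With the submitters' number as a covariate, and without the 3 libraries that stood apart, 1 of 8 had a positive sign. Myl2, the ventricular regulatory light chain, had 5246, 6695 and 13249 CPM in high Myl7 libraries, against 4420, 5876 and 13062 CPM in low libraries (log2 difference 0.02 ± 0.19). The other 7 genes (Myl3, Myh7, Irx4, Irx5, Hey2, Pln and Kcnj2) had log2 differences from -0.13 to 0.15, and the ventricular potassium channel gene Kcnj2 was the lowest of them. Of 12 genes used by all cardiomyocytes 0 passed (2 at an unadjusted p under 0.05), with a median log2 difference of -0.05, against 0.00046 over all genes tested. In tissue pieces such as these, more cells of a type and more RNA per cell cannot be told apart.

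Among the genes with the largest rises, several belong to none of the lists. By the rule (the 15 largest called rises, mean log2 CPM 1 or more) these were, besides Bmp10, Sln, Mybphl, Myl4, Nppa and Dkk3, the genes Tmem163, Cilp2, Fgf12, Ppp1r1b, Sbk3, Rxfp1, Lmntd1, Plekha7 and Sbk2. Tmem163, a zinc-binding membrane protein, had 4.74, 19.2 and 36.4 CPM in high Myl7 libraries, against 0.478, 1.23 and 4.63 CPM in low libraries (log2 difference 3.88 ± 0.27). Ppp1r1b, an inhibitor of protein phosphatase 1 known as DARPP-32, had 3.50, 7.25 and 20.8 CPM in high libraries against 0.350, 0.943 and 1.48 CPM in low ones (3.44 ± 0.19), and its adjusted p of 5.84e-12 in edgeR was the smallest of all genes tested. The muscle kinase genes Sbk3 (35.3, 101 and 225 against 5.35, 11.6 and 33.1 CPM) and Sbk2 (15.7, 40.6 and 78.2 against 4.52, 9.42 and 15.1 CPM) also separated the groups fully.

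Others of these rises overlapped slightly. Cilp2, a matrix protein first known from cartilage, differed by 3.80 ± 0.25, and Fgf12, an intracellular growth factor homologue that binds voltage-gated sodium channels, by 3.57 ± 0.27. Rxfp1, the receptor of relaxin, differed by 3.07 ± 0.27, Lmntd1 by 2.58 ± 0.29 and the junction protein Plekha7 by 2.34 ± 0.28. In all, 7 of the 15 genes had no overlap, 14 stayed called in all 32 leave-one-out fits, and 14 were called with the submitters' number as a covariate, Bmp10 being the exception in both.

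Genes of the covering of the heart rose with Myl7. Of 13 epicardial and mesothelial genes 11 were higher, against 2.14% of all genes, with a median log2 difference of 1.77. Krt19, a keratin of epithelia, had 1.31, 3.23 and 9.76 CPM in high Myl7 libraries, against 0.0782, 0.427 and 2.39 CPM in low ones (log2 difference 2.177 ± 0.337, edgeR adjusted p = 0.000148). Upk1b, a uroplakin of mesothelium, differed by 1.98 ± 0.33 and the membrane protein Gpm6a by 1.14 ± 0.18. Rspo1, a secreted activator of Wnt signalling, had 1.47, 2.46 and 3.52 CPM in high against 0.196, 0.617 and 1.35 CPM in low libraries (1.67 ± 0.23) and was the one member without overlap. The 2 members that did not pass were Wt1 (0.10 ± 0.11) and Aldh1a2 (0.31 ± 0.22), named after their values were seen. With the submitters' number as a covariate 0 of the 13 genes passed, while all 13 kept a positive sign and the median was 1.33. Without the 3 libraries that stood apart 11 of 13 passed as higher, against 504 of all 16416 genes.

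**Figure D3:**
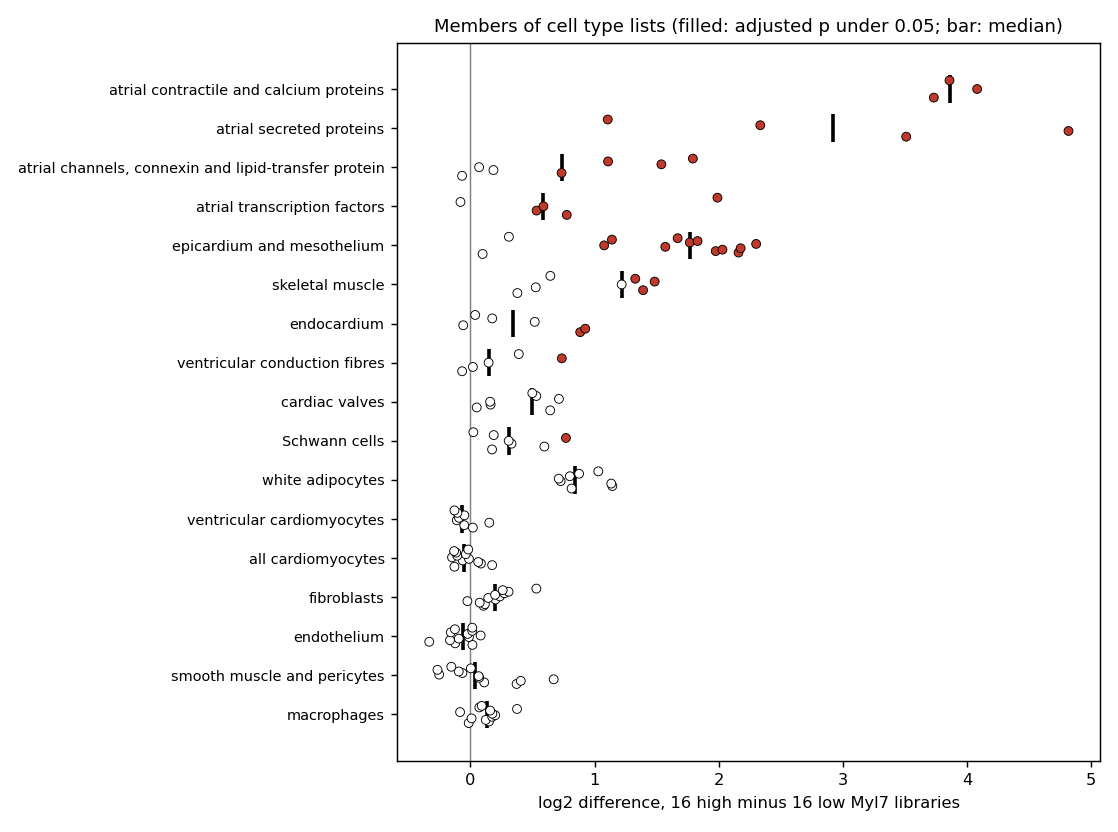
Log2 difference between 16 high and 16 low Myl7 libraries for each tested member of 17 lists of cell type genes, 1 point per gene, filled where the edgeR adjusted p is under 0.05, with a bar at the list's median. The atrial lists and the epicardial list (median 1.77) lie to the right, and the ventricular and all-cardiomyocyte lists lie around 0.

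Few genes on the lists of other cell types were called. Of 6 endocardial genes 2 rose, against 2.14% of all genes. They were the endothelial diaphragm protein Plvap (12.4, 17.8 and 29.1 CPM in high against 7.72, 9.82 and 15.2 CPM in low libraries, log2 difference 0.93 ± 0.094) and the natriuretic peptide receptor Npr3 (0.88 ± 0.15). The node genes Shox2 (0.39 ± 0.25), a homeobox factor, and Cacna1d (0.58 ± 0.23), a calcium channel, did not pass (edgeR adjusted p = 0.615 and 0.270). Of 5 conduction fibre genes Scn10a, a sodium channel, rose by 0.74 ± 0.15, of 7 Schwann cell genes the myelin gene Mbp by 0.77 ± 0.13, and of 6 lymphatic genes Pdpn, also a gene of mesothelium, by 0.39 ± 0.076. Of these rises Plvap was the one still called with the submitters' number as a covariate. Of 12 endothelial, 12 fibroblast, 12 smooth muscle, 12 macrophage, 8 white adipocyte and 7 valve genes 0 passed in each list. At an unadjusted p under 0.05 were 1, 7, 2, 1, 3 and 2 of them, against 1951 of all 16416 genes. All 7 valve genes and 11 of the 12 fibroblast genes had a positive sign, with median log2 differences of 0.50 and 0.20. Without the 3 libraries that stood apart, 2 fibroblast, 2 white adipocyte and 1 valve gene passed as higher, and 1 endothelial and 1 smooth muscle gene as lower. White adipocyte genes had a median log2 difference of 0.85, which was 1.56 without those 3 libraries and 0.05 with the submitters' number as a covariate, and their summed level was 5.15, 24.9 and 269 CPM in high against 2.26, 15.7 and 94.0 CPM in low libraries.

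In the list of skeletal muscle genes 3 of 7 tested members rose, against 2.14% of all genes. Myl1, an essential light chain of fast muscle, had 35.2, 53.1 and 84.3 CPM in high Myl7 libraries, against 12.9, 20.4 and 27.6 CPM in low libraries, with no overlap (log2 difference 1.33 ± 0.13, edgeR adjusted p = 1.19e-07). The troponin gene Tnni2 (1.39 ± 0.20) and the calcium pump gene Atp2a1 (1.48 ± 0.32) rose at lower levels. With the submitters' number as a covariate Myl1 was still called, while Tnni2 and Atp2a1 were not (edgeR adjusted p = 0.143 and 0.598). The defining myosin heavy chains Myh1, Myh2 and Myh4 were too low to test, with 43, 68 and 6 counts in all 64 libraries.

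Of the 10 pathway lists, 2 held a called gene. Cacna1h, a low-voltage calcium channel, was the one of 24 calcium cycling and excitation genes that passed, with 6.74, 30.1 and 53.5 CPM in high against 2.57, 13.7 and 29.5 CPM in low libraries (log2 difference 1.21 ± 0.30, edgeR adjusted p = 0.0231, lost in 4 of 32 leave-one-out fits). Timp2, an inhibitor of matrix metalloproteinases, was the one of 24 matrix genes, with a log2 difference of 0.25 ± 0.064, called in 24 of 32 leave-one-out fits. Neither passed with the submitters' number as a covariate (edgeR adjusted p = 0.773 for Cacna1h and 0.576 for Timp2). Of 25 fatty acid, 24 respiratory chain, 12 mitochondrial genome, 20 glucose, 11 wall stress, 11 retinoic acid and Notch, 18 core clock and 16 immediate early genes 0 passed. At an unadjusted p under 0.05 were 4, 1, 0, 0, 1, 1, 1 and 3 of them, against 1951 of all 16416 genes. Without the 3 libraries that stood apart 1 fatty acid gene passed as lower and 1 retinoic acid and Notch gene as higher. All 16 immediate early genes had a positive sign with a median of 0.26, and Fos, the largest, differed by 1.09 ± 0.43 (edgeR adjusted p = 0.247).

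The falls were shallow and depended more on single libraries. Nnt, the mitochondrial transhydrogenase that makes NADPH (chromosome 13, 119335448 to 119408997), had 302, 791 and 1164 CPM in high Myl7 libraries, against 563, 1042 and 1379 CPM in low libraries, a log2 difference of -0.74 ± 0.18 (edgeR adjusted p = 0.0228). Scn4b, a sodium channel beta subunit, differed by -0.45 ± 0.12 and the peptide Edn3 by -0.67 ± 0.18. Btnl9, a butyrophilin-like protein, had 36.1, 43.6 and 52.4 CPM in high against 44.0, 55.8 and 78.2 CPM in low libraries (-0.39 ± 0.076). Only 3 of the 15 largest falls were called in all 32 leave-one-out fits. They were Btnl9, the signalling regulator Rgs4 (-0.33 ± 0.057) and the ubiquitin ligase subunit Fbxo40 (-0.27 ± 0.063). The other 12, Nnt, Scn4b and Edn3 among them, were called in 10 to 29 of those 32 fits. With the submitters' number as a covariate 0 of the 15 were called.

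The 32 middle libraries, which took no part in the comparison, gave the same measure a second time as a slope on log2 Myl7 CPM. In edgeR 44 of 16416 genes (0.268%) were called, 41 (0.25%) with a positive and 3 (0.0183%) with a negative slope. Of the 352 genes higher in high Myl7 libraries 332 had a positive slope, against 8584 of all 16416 genes, and 36 were called. Of the 49 lower genes 46 had a negative slope and 0 were called. Myl4 (slope 0.94 ± 0.048 log2 per doubling of Myl7, edgeR adjusted p = 1.41e-13), Mybphl (0.94 ± 0.089) and Sln (0.93 ± 0.095) rose nearly in step with Myl7.

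Some other genes followed Myl7 less steeply in these libraries. Stard10 had a slope of 0.51 ± 0.050, Myl1 of 0.53 ± 0.090 and Gja5 of 0.34 ± 0.073 (edgeR adjusted p = 3.16e-07, 0.00453 and 0.0316). Nppa, with a slope of 1.12 ± 0.23 (edgeR adjusted p = 0.0255), was not less steep than Myl4, Mybphl and Sln. Of the 19 atrial genes 18 had a positive slope and 6 passed, and of the 13 epicardial genes all 13 were positive and 1 passed. Over all 16416 genes 8584 had a positive slope, and 0.25% passed with one. Tbx5 (0.11 ± 0.067) was not called. The count of calls was unstable: without CON at ZT9 replicate 3 it was 9, and it was 22 without CON at ZT9 replicate 4 or CEK at ZT6 replicate 2, 23 without CEK at ZT12 replicate 3, 24 without CEK at ZT3 replicate 4, 26 without CEK at ZT12 replicate 1 and 29 without CON at ZT12 replicate 4. It was 74 without CEK at ZT21 replicate 1, 78 without CEK at ZT21 replicate 2, 79 without CEK at ZT0 replicate 1 or CON at ZT0 replicate 4, and 80 without CEK at ZT6 replicate 3.

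**Figure D4:**
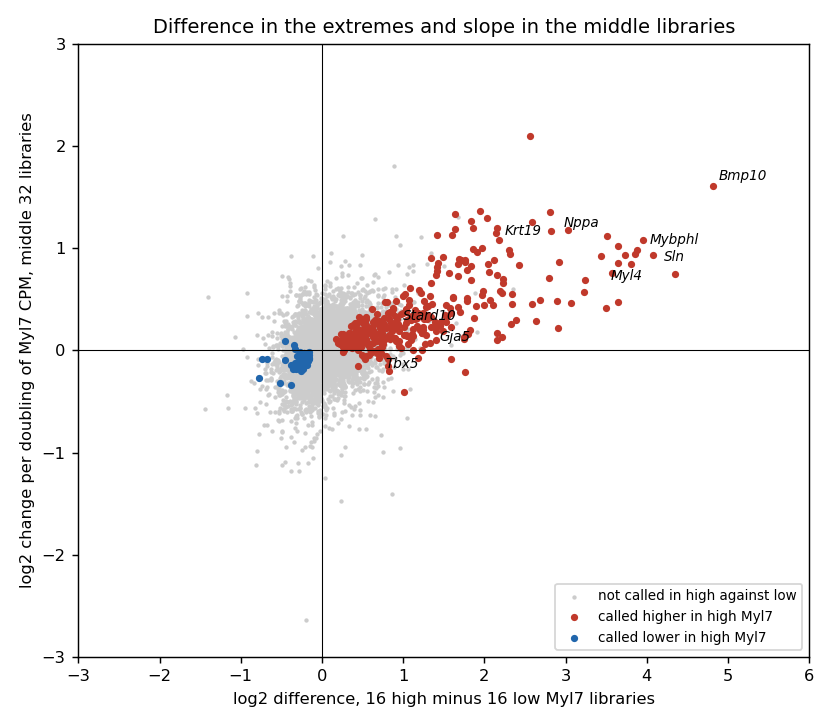
For each gene tested, the log2 difference between 16 high and 16 low Myl7 libraries (horizontal) and the log2 change per doubling of Myl7 CPM in the 32 middle libraries (vertical); red and blue points are genes called higher and lower in the first comparison. Of the 352 red points 332 lie above 0 on the vertical axis.

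The high libraries resembled each other in some atrial transcripts and not in others. Per 100 counts of Myl7, a ratio used to compare libraries and not genes, Myl4 ran from 99.9 to 124 counts over the 16 high libraries, Sln from 23.3 to 33.8 and Stard10 from 12.9 to 19.3. Nppa ran from 12.1 to 55.03, with CEK at ZT0 replicate 4, which stood apart on the first component, at 57.98 CPM and the lowest of the group. Bmp10 ran from 0.0069 to 37.95 counts per 100 of Myl7, so that libraries with much the same Myl7 differed widely in it. CON at ZT3 replicate 4 had 812 CPM of Myl7 and 2 counts of Bmp10, and CON at ZT9 replicate 2 had 791 CPM of Myl7 and 6481 counts of Bmp10.

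The 3 high libraries with at least 100 CPM of Bmp10 were CON at ZT21 replicate 2, CON at ZT9 replicate 2 and CEK at ZT18 replicate 2, with 313, 300.3 and 117 CPM. Low libraries were not uniform either, and 3 of 16 had at least 10 CPM of Bmp10, against 11 of 16 high libraries and 17 of 32 middle libraries. Hamp, the iron hormone hepcidin, was chosen after its values were seen: the 2 high libraries with at least 10 CPM of it (17.2 and 16.3 CPM) were the 2 with the most Bmp10, and the group's median was 4.21 CPM, against 0.714 CPM in low libraries.

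**Figure D5:**
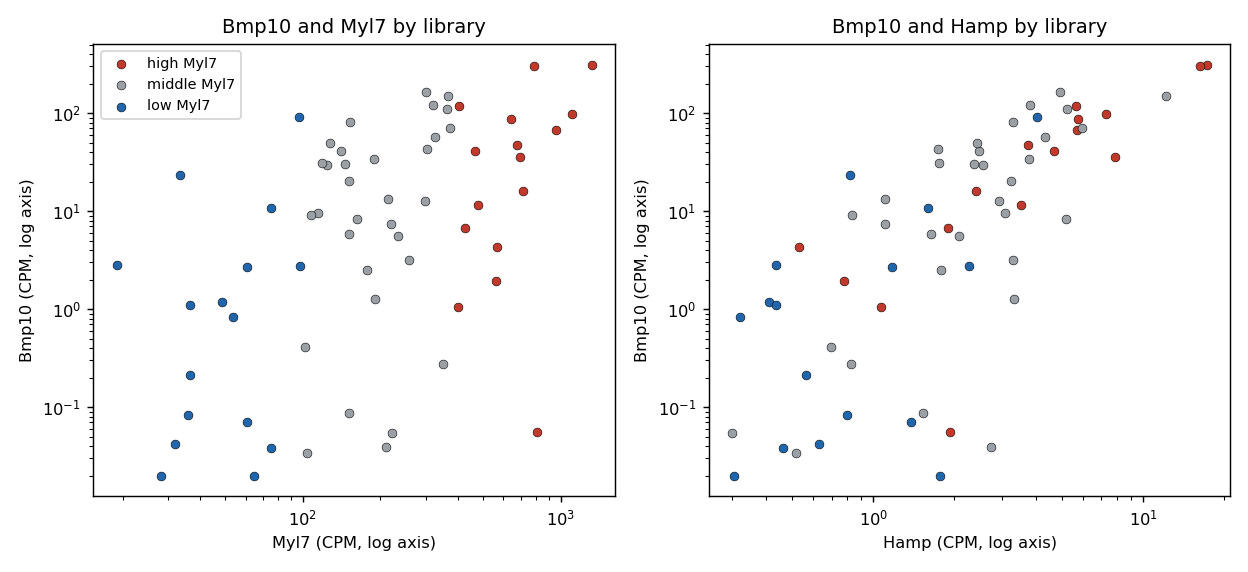
Bmp10 CPM against Myl7 CPM (left) and Hamp CPM (right) in 64 libraries, all axes log, counts of 0 drawn at 0.02 CPM, coloured by Myl7 group. High Myl7 libraries span the range of Bmp10 from 0.0558 to 313 CPM, and CON at ZT3 replicate 4 combines 812 CPM of Myl7 with the lowest Bmp10 of the group.

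CEK and CON hearts were then compared for the size of the high against low difference. In the interaction of genotype and Myl7 group 0 of 16416 genes (0.0%) were called by edgeR and 0 by DESeq2. In edgeR 277 of 16416 genes (1.69%) had an unadjusted p under 0.05, and in the main comparison 1951 of 16416 did. For Myl4 the difference of the log2 differences, CEK minus CON, was -0.57 ± 0.43 (edgeR adjusted p = 0.999). The 5 high CEK libraries come from only 2 of the 8 times, so this test compares few hearts.

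The genotype difference over all 64 libraries was last fitted with and without log2 Myl7 CPM as a term, since Myl7 itself was unevenly spread over the genotypes. CEK libraries had 19.01, 151 and 679 CPM of Myl7 and CON libraries 31.8, 308 and 1319 CPM (lowest, median, highest). With the term edgeR called 2162 genes (13.2%), 7.38% of all genes higher and 5.79% lower in CEK. Without it there were 2090 calls (12.7%), 6.96% higher and 5.77% lower, and 1867 genes were called in both fits. Among the 352 genes higher in high Myl7 libraries the calls turned over: 19 with the term and 72 without it were lower in CEK, and 40 and 11 were higher. The median log2 difference, CEK minus CON, was -0.03 with the term and -0.20 without it, and among the 170 genes that differed by 2-fold or more it was -0.06 and -0.47.

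Of the genes on the 4 atrial lists that were called lower in CEK without the term, Kcnj3 and Tbx5 were the ones still called with it. Myl4 had a log2 difference, CEK minus CON, of -0.06 ± 0.036 with the term and -0.93 ± 0.31 without it (edgeR adjusted p = 0.361 and 0.0352). Sln had -0.06 ± 0.070 with the term and -0.998 ± 0.334 without it (edgeR adjusted p = 0.637 and 0.0362). Since these genes rise and fall with Myl7, the loss is partly built into the fit.

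A few genes that follow Myl7 differed between genotypes in both fits. Kcnj3 was lower in CEK by -0.40 ± 0.062 on the log2 scale with the term and -0.50 ± 0.084 without it (edgeR adjusted p = 1.92e-06 and 8.93e-06), and Myl1 by -0.47 ± 0.076 and -0.73 ± 0.14 (4.64e-06 and 6.44e-05). Tbx5 was lower by -0.20 ± 0.056 and -0.31 ± 0.085 and Sbk2 by -0.28 ± 0.091 and -0.72 ± 0.20. Atp2a1 was higher in CEK by 1.02 ± 0.15 with the term and 0.76 ± 0.19 without it. Tnni2 was called higher in CEK with the term (0.62 ± 0.13, edgeR adjusted p = 0.000246), while without it the value was 0.35 ± 0.16 (0.161).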

How the data were processed

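The deposited table holds raw read counts per gene for 64 libraries, all whole numbers whose sum varies from library to library. The authors used bcl2fastq 2.18.0.12, STAR 2.6.1d on GRCm38 and HTSeq 0.11.1, per the submitters' processing notes; the annotation release and the strand setting were not given in the sources used here. Of 48795 gene rows 48435 matched GENCODE M21 by ID, and 5 summary rows of the counting program stayed out of all totals.

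CPM is a gene's count over the library's total on genes. Genes were kept by filterByExpr on the 16 labelled groups (minimum count 10, total 15) and scaled by TMM, and Myl7 was removed from the tests. The 4 fits used edgeR 4.0.16 in R 4.3.3 (quasi-likelihood test, Benjamini-Hochberg adjusted p under 0.05): high against low Myl7 with genotype and time, a slope in the middle 32, the interaction with genotype, and genotype with log2 Myl7 CPM in all 64. Alternatives included DESeq2 1.42.0. The SE of a log2 difference or slope is its absolute value over the square root of the edgeR test statistic F. It was not estimated separately. The labels call replicates biological, and the p-values measure the spread between hearts. The fits were run on simulated counts with known changes, drawn independently for each gene. The simulation held no outlying libraries and no trend with the submitters' number, so it does not test how the fits deal with these.

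Members, the 35 gene lists, motifs and alternatives were chosen with earlier results of these data known. Named genes are all members of the 4 atrial lists and the ventricular list, the 15 largest rises and falls (mean log2 CPM 1 or more), and of each other list the 4 with the smallest p. Provisional gene models (29 of the 401 called) were counted, not named. Results for 2 genes the rule picks are not reported here.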

Additional observations from a re-analysis of the deposited data

Results flagged for a closer look

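Within the labelled groups of 4 libraries, 2 CON hearts stood far from their 3 fellows in CPM. The rule was Dixon's test over 48 combinations of group and marker. For normally distributed values chance marks about 1 group in 20, but CPM was not put on a log scale here. The flags are thus given only as a description. The markers Myl7, Myl4 and Sln rise and fall together, so the combinations are not independent. CON at ZT0 replicate 2 had 642 CPM of Myl7, 736 CPM of Myl4 and 189 CPM of Sln, against a group median of 75.001 CPM for Myl7. CON at ZT3 replicate 4 had 812 CPM of Myl7 and 811 CPM of Myl4, and the group's median for Myl7 was 130 CPM. Their Myl7 values place both among the 16 high libraries, and the second is the one with 2 counts of Bmp10. Leaving out either changed the count of 401 called genes by less than 1.5 times.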

How the results depend on the processing

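The count of 401 genes called between high and low Myl7 libraries changed with several settings. It was 68 with the submitters' number as a covariate, 140 for the top 8 against the bottom 8, 641 without the 3 libraries that stood apart (78.6% of calls higher, against 87.8%), 650 in DESeq2 (72.0% higher), 666 with cosine and sine of time (73.3%), 765 for the top 21 against the bottom 21 (64.97%) and 1740 for a slope over all 64 libraries (54.6%). Slopes within the 32 lower submitter numbers, chosen after seeing the data, gave 126. In CEK libraries alone it was 0, with 533 genes at an unadjusted p under 0.05 and 6 residual degrees of freedom, and Lrtm1 reversed there to 0.0042 (edgeR adjusted p = 0.995). In CON libraries alone it was 303, with 9 residual degrees of freedom. In the middle libraries DESeq2 called 200 genes, 127 of them lower, against 44 in edgeR. The cause was not tested. Leaving out 1 library at a time gave 312 to 564 calls between high and low, 9 to 80 in the middle libraries, 0 for the interaction and 1927 to 2324 for genotype. RLE scaling changed no call among 165 named genes in the high against low and middle fits, the submitters' number as a covariate gave 47 calls in the middle libraries, 0 for the interaction and 2221 for genotype, and the genotype count stayed between 1994 and 2427 under the other settings.

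With a replicate block the counts were 134 between high and low (3 of them lower), 20 in the middle libraries and 2325 for genotype. The labels name no origin shared by samples with the same number: over 32 CEK and CON pairs with the same number the correlation of deviations ran from -0.43 to 0.52, and 20 exceeded 0.1.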

Other observations

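Red blood cell and lung transcripts were looked at as signs of other tissue in the samples. Of 5 red blood cell genes 0 passed in edgeR, and 1 passed without the 3 libraries that stood apart. At an unadjusted p under 0.05 was 1 of the 5, against 1951 of all 16416 genes. All 5 red blood cell genes had a positive sign with a median log2 difference of 0.35. Their summed level was 391.9, 623 and 1382 CPM in high Myl7 libraries (lowest, median, highest), against 294, 443 and 1625 CPM in low libraries. Of 8 lung epithelium genes 1 could be tested and did not pass, with a log2 difference of 0.18. Of 6 thymus genes 1 could be tested, Cd1d1, at 0.13 ± 0.11.

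Brown adipocyte genes (4 tested), lymphocyte genes (8 tested) and genes of cardiac ganglia (5 tested) had 0 calls in edgeR and 0 at an unadjusted p under 0.05, with median log2 differences of -0.10, 0.03 and 0.15.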
